A study of Homo sapiens with 2 samples.

Results

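The microRNAs (miRNAs) described here are the 5p arms of the hairpins numbered miR-6726 to miR-6895, a block of the human miRNA catalogue rich in mirtrons. They were taken by name from the scanner output of both arrays: every miRNA whose number lies in that range, with or without a letter after the number, and whose arm is 5p. This gave 167 miRNAs of the 2565 on each array. The RNA came from exosomes, small vesicles shed by cells, of the established human liver cancer line HuH-7 (hepatocellular carcinoma). Its cultures carry the labels HuH-7-P or HuH-7-M, which give no meaning for the letters P and M, and the series title concerns lines of this cancer that spread readily within the liver. Both cultures were grown in the same serum-containing medium and moved to advanced DMEM, and their vesicles were pelleted by ultracentrifugation, with no further treatment of either given. Each culture was measured on 1 array, with 1 spot for each miRNA, so no difference below has a replicate, no test between the cultures was possible, and their number limits the precision. Values given in pairs are HuH-7-P, then HuH-7-M.

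A canonical miRNA hairpin is cut from its primary transcript by the nuclease Drosha and then trimmed by Dicer to a short duplex whose arms are called 5p and 3p. A mirtron skips the Drosha step: it is a short intron that the spliceosome removes, that is then debranched and folds into a hairpin Dicer can use. Its 3' end is therefore the end of an intron, which closes in AG, after the pyrimidine-rich tract that precedes most splice acceptors, and the opposite arm, 5p, must pair with that tract. Whichever arm is loaded into an Argonaute protein recognises messenger RNAs mainly through its seed, bases 2 to 8.

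RefSeq (GRCh38.p14) lists a mature sequence for 142 of the 167. The sequences of the brightest members show their richness in guanine. They are written 5' to 3' with the seed in capitals, in falling order of signal.
miR-6780b-5p: uGGGGAAGgcuuggcagggaaga
miR-6727-5p: cUCGGGGCaggcggcugggagcg
miR-6729-5p: uGGGCGAGggcggcugagcggc
miR-6786-5p: gCGGUGGGgccggaggggcgu
miR-6787-5p: uGGCGGGGguagagcuggcugc
miR-6869-5p: gUGAGUAGuggcgcgcggcggc
miR-6781-5p: cGGGCCGGaggucaagggcgu
miR-6784-5p: gCCGGGGCuuugggugaggg
miR-6805-5p: uAGGGGGCggcuuguggagugu
miR-6816-5p: uGGGGCGGggcaggucccugc
miR-6765-5p: gUGAGGCGgggccaggagggugugu
miR-6743-5p: aAGGGGCAgggacggguggccc
miR-6803-5p: cUGGGGGUggggggcugggcgu
miR-6879-5p and miR-6893-5p also belong to the 15 brightest.

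The dimmest members with a listed sequence are shown beside them; the seed is again in capitals.
miR-6773-5p: uUGGGCCCaggaguaaacaggau
miR-6739-5p: uGGGAAAGagaaagaacaagua
miR-6733-5p: uGGGAAAGacaaacucagaguu
miR-6854-5p: aAGCUCAGguuugagaacugcuga

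A pair of hairpins shows how the arm sits in its precursor; capitals mark the 5p arm and, where the hairpin ends in it, the closing AG. The hairpin of miR-6729 lies at chr1:12029158-12029222 on the plus strand, and that of miR-6869 at chr20:1392900-1392961 on the minus strand (GRCh38.p14).
miR-6729 hairpin: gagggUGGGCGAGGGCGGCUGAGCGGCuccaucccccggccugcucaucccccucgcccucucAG
miR-6869 hairpin: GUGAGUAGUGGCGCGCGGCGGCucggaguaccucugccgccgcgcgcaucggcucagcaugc
The miR-6729 hairpin closes in AG after a cytosine-rich 3' side, while the miR-6869 hairpin does not end in AG. Over the block, 145 of 153 hairpins listed by RefSeq ended in AG (94.8%), against 118 of the 1409 other human hairpins (8.37%). Their median length was 66 bases against 82. An intron starts with GU, and 19 block hairpins (12.4%) started so, against 7.88% of the others. The splice sites themselves were not examined. Of the members with a sequence, 6 of 142 (4.23%) opened with GUGAG, a common start of human introns, against 5 of 622 other 5p arms (0.804%). These were miR-6869-5p, miR-6765-5p, miR-6858-5p, miR-6807-5p, miR-6834-5p and miR-6790-5p. Of the 142, 140 (98.6%) lay within the bounds of a protein-coding gene in the RefSeq gene table, and the exceptions were miR-6840 and miR-6770. That table gives no strand or exon here, so whether each hairpin is intronic was not determined. The same share was not computed for other miRNAs, so 98.6% cannot be read as a trait of the block.

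Nearly every member read above a limit set by the BLANK spots on both arrays. Signal below means the spot's median fluorescence minus the mean of the BLANK spots of its array, and a miRNA was called above background where the spot exceeded the BLANK mean by 2 SD. By this limit 160 members were above background with HuH-7-P, while HuH-7-M gave 159, and 159 (95.2%) passed on both, against a background of 62.1% over all miRNAs on the array. Among all other 5p arms the share was 56.1%. Spots labelled No Probe, which should bind nothing specific, were brighter than BLANK spots and set a stricter limit. Before subtraction the BLANK limit was an intensity of 62.3 and 61.2, and the No Probe limit 86.9 and 89.9. By the No Probe limit 133 members (79.6%) were above background on both arrays, against 30.8% over all miRNAs and 26.2% of other 5p arms.

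The median member gave a signal of 157.6 (quartiles 51.1 and 434) and 166 (45.3 and 453). The medians over all miRNAs were 10.8 and 10.7, and those of other 5p arms 7.26 and 6.41. Members made up 6.51% of the miRNAs on the array but 21 of the 100 brightest and 73 of the 300 brightest. The brightest member ranked 26. Together they held 13.2% and 14.3% of the summed signal of all miRNAs. The order of the members was nearly the same on both arrays, with a Spearman correlation of 0.986 over the 167; this describes the points, which share an array design and probe chemistry. A signal depends on how well a probe binds as well as on how much RNA is present, so signals of different miRNAs are given here as an order of brightness and not as amounts.

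**Figure D1:**
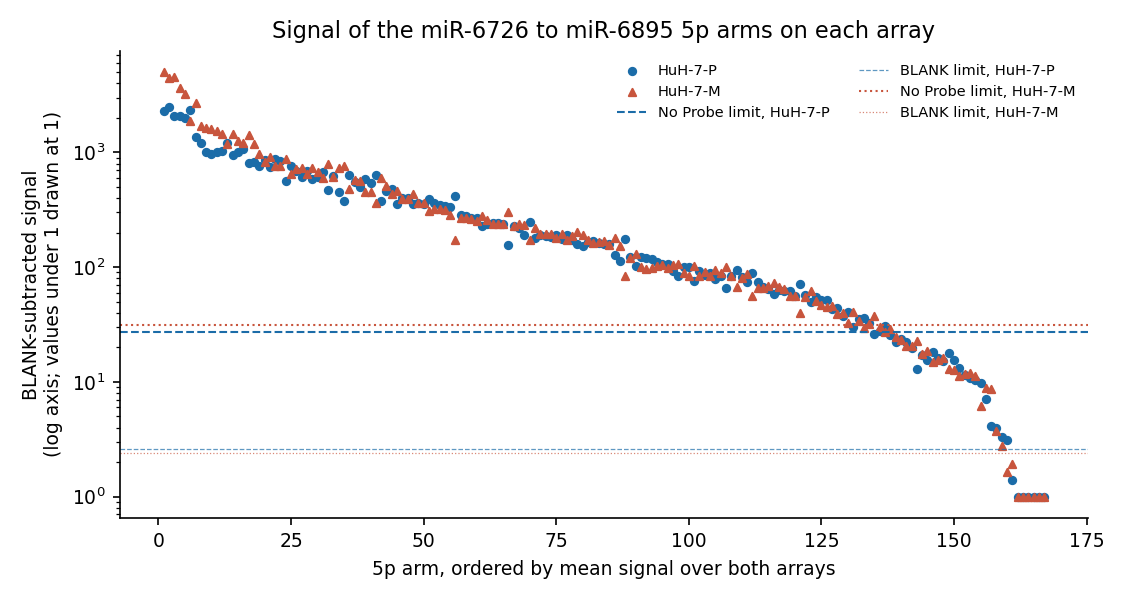
BLANK-subtracted signal (log axis) of each of the 167 members, ordered by mean signal, with circles for HuH-7-P, triangles for HuH-7-M and horizontal lines for the BLANK and No Probe limits of each array; values under 1 are drawn at 1. The arrays overlap over most of the range, and HuH-7-M lies above HuH-7-P for 16 of the 18 members whose mean signal exceeds 1000.

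By mean over both arrays the brightest member was miR-6780b-5p, at 2296 and 5026, encoded at chr6:43434547-43434569 (plus strand, GRCh38.p14) within ABCC10, a drug efflux transporter gene. miR-6727-5p followed at 2477 and 4414, at chr1:1312539-1312561 within INTS11, the RNA-cutting subunit of Integrator. miR-6729-5p reached 2092 and 4584, from within MIIP. All 3 were brighter with HuH-7-M. miR-6879-5p read 2086 and 3669. miR-6786-5p read 2014 and 3233 and lies within HGS, whose product sorts cargo into the endosomes that give rise to exosomes. miR-6787-5p read 2366 and 1867 and lies within SLC16A3, a lactate exporter gene. It was the only one of these 6 to be dimmer with HuH-7-M. Below them came miR-6869-5p (1373 and 2690, within FKBP1A), miR-6781-5p (1217 and 1689, within BECN1, an autophagy gene), miR-6784-5p (1004 and 1624, within PLCD3) and miR-6805-5p (969 and 1616, within the ribosomal protein gene RPL28). miR-6816-5p (1008 and 1530), miR-6765-5p (1024 and 1439, within the Notch ligand gene JAG2), miR-6743-5p (1219 and 1195), miR-6893-5p (953 and 1448) and miR-6803-5p (1017 and 1257) complete the 15. Of these last 5, only miR-6743-5p was not brighter on HuH-7-M. Its difference was -0.03 unscaled, -0.37 after the quantile scaling described below and -0.61 on a scale set by spiked-in controls. On the scale of those controls miR-6816-5p (-0.0036), miR-6765-5p (-0.11), miR-6893-5p (-0.0037) and miR-6803-5p (-0.29) were negative as well. The 5 brightest members held 20.1% and 28.7% of the members' summed signal.

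At the other end, 7 members were above background on neither array: miR-6864-5p, miR-6739-5p, miR-6841-5p, miR-6811-5p, miR-6733-5p, miR-6854-5p and miR-6866-5p. miR-6773-5p was above it on HuH-7-P only, with signals of 3.14 and 1.63, which gives a bound of at least 1.01-fold higher there. Around the No Probe limit, taken as a mean over both arrays, the members just inside by mean signal were miR-6740-5p (25.9 and 37.8), miR-6872-5p (32.4 and 32.1) and miR-6734-5p (35.8 and 29.6). Those just outside were miR-6833-5p (25.6 and 28.7), miR-6862-5p (30.4 and 27.4) and miR-6857-5p (28.0 and 30.2). Of the inner 3, miR-6740-5p missed the limit on HuH-7-P and miR-6734-5p on HuH-7-M, so neither is among the 133.

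Brightness followed guanine content closely. The members' median guanine content was 50% (range 25% to 68.2%), against 26.1% over all other miRNAs with a sequence. A run of at least 4 guanines (GGGG, read on the mature strand) occurred in 67 of the 142 (47.2%), against 9.57% of the others. Guanine was unevenly placed: at base 5, within the seed, 69.0% of members had G against 36.5% of other 5p arms, and at base 1 12% had it against 13.2%. Members under 40% guanine had median signals of 17.0 and 16.1 (33 miRNAs). From 40% to 50% the medians were 86.9 and 86.2 (36 miRNAs). From 50% to 60% they were 351 and 322 (62 miRNAs), and at 60% and over 866 and 1177 (11 miRNAs). Each step up in guanine was a step up in brightness on both arrays.

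The Spearman correlation of signal with guanine content over the 142 was 0.722 and 0.723, given as a description because the points share the array. The correlation over 2111 other miRNAs was 0.45. Guanine after the seed correlated at 0.604 and guanine within it at 0.43. Adenine content ran the other way, at -0.51, and length correlated at -0.09. Members at 50% to 60% guanine that held GGGG had median signals of 352 and 323 (39 miRNAs), and those without it 237 and 281 (23 miRNAs). In the same guanine ranges, from under 40% upward, the other 5p arms had medians of 3.32 and 3.08, of 88.9 and 84.0, of 272 and 272, and of 578 and 804. The median of the members was above that of the other 5p arms under 40% guanine and from 50% upward, and level with it from 40% to 50%. Under 40% the groups were not matched on guanine within the range: members began at 25% and the other 5p arms at 0%. miR-6768-5p (cACACAGGaaaagcggggcccug, seed in capitals) stood well above its range: with 34.8% guanine it read 747 and 910. Whether guanine content acts through the probe or through the RNA was not tested.

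**Figure D2:**
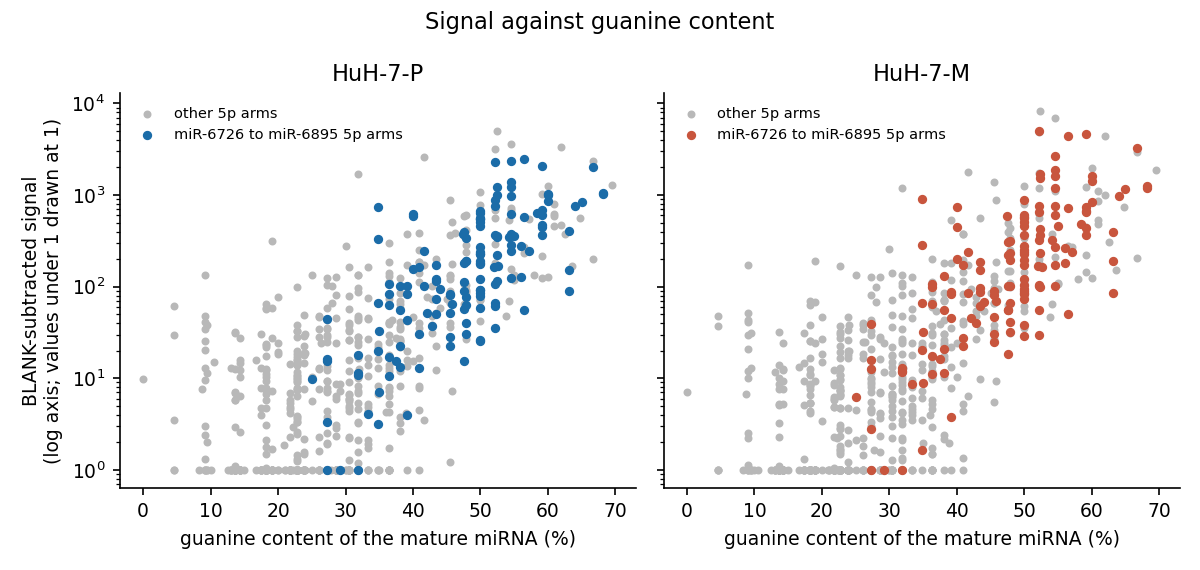
BLANK-subtracted signal (log axis, values under 1 drawn at 1) against guanine content of the mature miRNA in percent, for HuH-7-P on the left and HuH-7-M on the right, with coloured points for the 142 members with a sequence and grey points for the 622 other 5p arms. Members lie to the right, at a median of 50% guanine, and both kinds of points climb with guanine. Under 40% guanine the members' medians (17.0 and 16.1) are above those of the other 5p arms (3.32 and 3.08), whose guanine content reaches lower.

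The 5p arm was the brighter arm of most hairpins. Both probes of 167 hairpins could be set side by side, and 5p was brighter on both arrays in 137 (82.0%) and 3p in 22. Among 643 hairpins outside the block 5p was brighter on both arrays in 48.1%. On each array singly it was brighter in 141 of the block (84.4%), against 54.1% and 53.5% outside it. The 3p arms of the same numbers had median signals of 25.2 and 24.5, and 65 of 168 (38.7%) exceeded the No Probe limit on each array. Their median guanine content was 14.3% and their median cytosine content 45.5%, and over 149 of them signal correlated with cytosine at 0.622 and with guanine at -0.249 (Spearman, descriptions). The arms' signals were loosely related, with a Spearman correlation of 0.338 and 0.306. Because the arms bind different probes, these are orders of brightness, not strand use.

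The arms that stood furthest apart are given for hairpins with at least 1 arm above the No Probe limit on each array. Where a 3p arm was not above background on both arrays, as for miR-6869, miR-6768 and miR-6807, the order among these hairpins has no meaning. Values not above background are noise about the BLANK mean, and miR-6869-3p exceeded the BLANK limit on HuH-7-M only. In miR-6869 the 5p arm read 1373 and 2690 and the 3p arm -2.38 and 4.48. For miR-6768 the 5p arm read 747 and 910 and the 3p arm 1.85 and -1.57. For miR-6781 they were 1217 and 1689 against 3.55 and 2.69, and for miR-6807 237 and 239 against -3.19 and -1.44. In each, the 5p arm was bright on both arrays while the 3p arm lay at or near background. In the opposite direction, the 5p arm of miR-6840 read 9.80 and 6.18 and its 3p arm 244 and 268. The 5p arm of miR-6872 read 32.4 and 32.1 and its 3p arm 789 and 646. miR-6836 (13.1 and 22.6 against 87.8 and 152) and miR-6761 (13.2 and 11.3 against 41.3 and 39.95) were also brighter on 3p. Some hairpins with both arms dim lay further apart in this direction than miR-6761 and are not given. miR-6765, chosen after its values were seen, was bright on both arms, 1024 and 1439 on 5p against 3759 and 2907 on 3p. Of these hairpins brighter on 3p, only miR-6840 had its brighter arm richer in guanine (25% on 5p and 45.5% on 3p). The brighter 3p arms of miR-6872 (35.0% and 23.8%), miR-6836 (40.9% and 23.8%) and miR-6761 (38.1% and 9.09%) were the poorer ones. The 3p arm of miR-6765 was also poorer in guanine than its 5p arm. The sequences of the extreme hairpins are shown with seeds in capitals.
miR-6840-5p: aCCCCCGGgcaaagaccugcagau
miR-6840-3p: gCCCAGGAcuuugugcggggug
miR-6872-5p: uCUCGCAUcaggaggcaagg
miR-6872-3p: cCCAUGCCuccugccgcgguc
miR-6869-3p: cGCCGCGCgcaucggcucagc

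**Figure D3:**
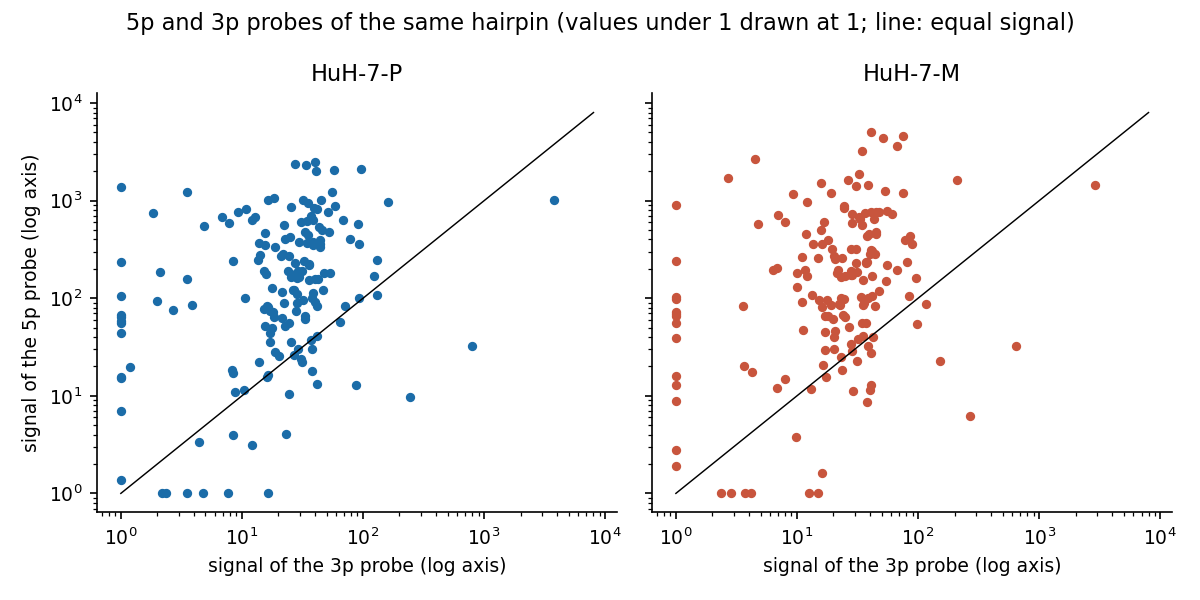
Signal of the 5p probe against signal of the 3p probe of the same hairpin (both log axes, values under 1 drawn at 1), 1 point for each of 167 hairpins, HuH-7-P on the left and HuH-7-M on the right, with a line at equal signal. On each array 141 points lie above the line.

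Relative to all miRNAs on the arrays, the members differed little between the cultures. Differences are given as log2 of HuH-7-M less log2 of HuH-7-P, after background correction on the BLANK spots with an offset of 50 and quantile scaling of all miRNAs, called the main scale below, on which dim differences are pulled toward 0. Over the 159 members above background on both arrays the median difference was 0.02 (quartiles -0.07 and 0.15, range -1.12 to 0.86), against 0.01 over all such miRNAs. It was above 0 for 88 and below 0 for 70. No member was 2-fold higher in HuH-7-M, against a background of 0.439% of all miRNAs, and 1 was 2-fold lower, against 1.69%. With no scaling, on the BLANK-subtracted signals themselves, 4 were 2-fold higher (background 3.33%) and 2 were 2-fold lower (background 4.46%). Quantile scaling gives both arrays the same distribution, so it cannot show a shift of all miRNAs together. On a scale set by spiked-in controls the members' median was -0.57, against -0.58 over all such miRNAs. The repeated spots of the bright control probes of 1 array varied so that a difference of 2 spots has a spread of 0.171 (log2, SD). On the main scale 35 members (22%) were higher by more than that, against 15.9% of all miRNAs above background, and 21 (13.2%) lower, against 12.6%. These shares are not matched on brightness: 24 of the 159 members had a mean signal under 30, against 727 of the 1434 others. The spread of 0.171 covers spots on an array and not cultures, extractions or arrays.

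The member past 2-fold on the main scale was miR-6890-5p, with signals of 419 and 173. Its difference was -1.12 on the main scale and -1.27 unscaled, and its 3p arm read 24.9 and 28.4, a difference of 0.08 on the main scale. The 5p arm was dimmer with HuH-7-M. The 3p arm exceeded the No Probe limit on neither array, so its small difference does not show that it was level. miR-6881-5p, read from a hairpin within SEMA7A, had signals of 175 and 84.3, for -0.74 on the main scale and -1.06 unscaled. miR-6787-5p differed by -0.94 on the main scale and by -0.34 unscaled. miR-6880-5p read 633 and 363 (-0.81). Next were miR-6789-5p (640 and 480, -0.49), miR-6822-5p (591 and 452, -0.44), miR-6847-5p (71.8 and 40.2, -0.41) and miR-6793-5p (247 and 171, -0.40). The spot of miR-6793-5p carries a bad-spot entry on HuH-7-M. The sequences of miR-6881-5p and miR-6789-5p are shown with seeds in capitals.
miR-6881-5p: uGGGGUAAggauaggaggguca
miR-6789-5p: gUAGGGGCgucccgggcgcgcggg

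At the higher end on HuH-7-M, miR-6778-5p, within the folate enzyme gene SHMT1, read 375 and 765, for 0.86 on the main scale and 1.03 unscaled. miR-6875-5p read 158 and 302 (0.78). miR-6858-5p read 449 and 739 (0.58) and miR-6845-5p 473 and 786 (0.58). miR-6820-5p, within the RNA polymerase subunit gene POLR2F, read 377 and 597 (0.53), and miR-6791-5p read 566 and 872 (0.46). miR-6780b-5p and miR-6729-5p, at 0.47 each on the main scale, were 2.19-fold brighter on HuH-7-M unscaled. miR-6770-5p was 2-fold higher unscaled only at the floor of the array, with signals of 4.09 and 8.69 and a difference of 0.12 on the main scale. On a scale set by the spiked-in controls, where the median of all miRNAs is -0.58, miR-6778-5p stood at 0.36, miR-6875-5p at 0.18, miR-6858-5p at 0.08 and miR-6820-5p at 0.02. The sequences of miR-6778-5p and miR-6858-5p, with seeds in capitals, are shown as examples.
miR-6778-5p: aGUGGGAGgacaggaggcaggu
miR-6858-5p: gUGAGGAGgggcuggcagggac

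The differences that unscaled signals gave among the brightest members were shared with other bright spots. Of the 18 members with a mean signal over 1000, 16 were brighter on HuH-7-M, with a median unscaled difference of 0.64 (range -0.34 to 1.13). Of 68 other miRNAs that bright, 56 were brighter on HuH-7-M, also with a median of 0.64. The spiked-in control probes differed by 0.51 and 0.66 in the same direction, and S-Probe26, S-Probe27 and S-Probe28, further control probes of the array, by 0.94, 1.02 and 0.997. The control probes S-Probe21 and S-Probe24, at signals between 172 and 262, differed by 0.22 and -0.03. From 300 to 1000 the members' median unscaled difference was -0.03 (37 miRNAs) and the others' 0.14. From 100 to 300 it was 0.01 (41 miRNAs). On the main scale the 18 brightest had a median of 0.23 with 15 above 0, against a median of 0.04 for the 68 others. On a scale set by the spiked-in controls the medians were 0.04 for both, with 9 of the 18 above 0. A difference between cultures and a difference between arrays at the bright end cannot be told apart with 1 array each.

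**Figure D4:**
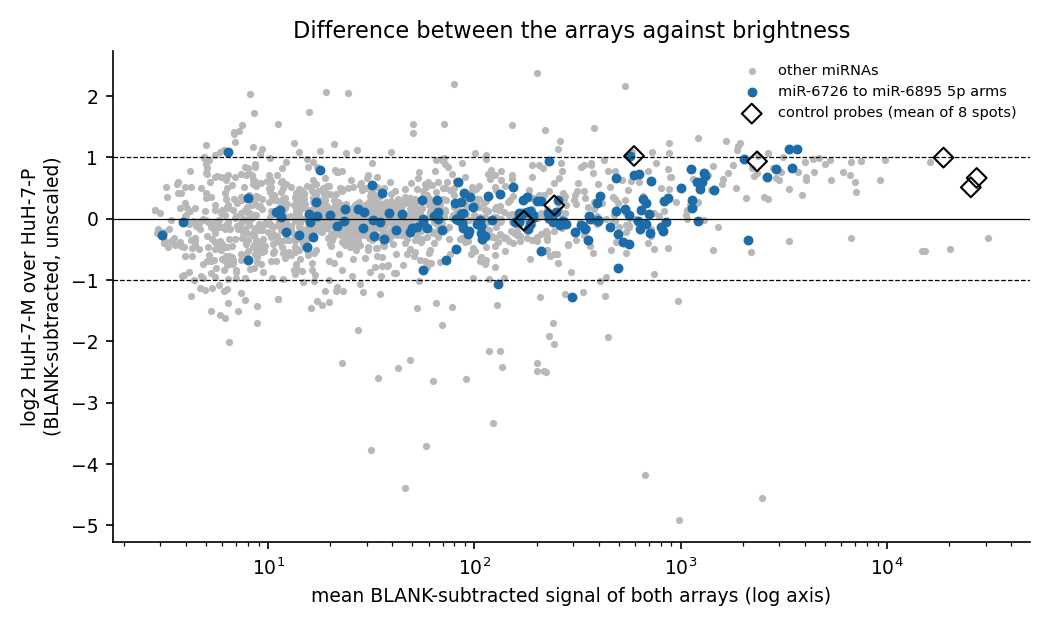
Unscaled log2 HuH-7-M over HuH-7-P of the BLANK-subtracted signals against mean signal (log axis), for the 159 members above background on both arrays (blue), the 1434 other such miRNAs (grey) and 7 control probes with 8 spots each (diamonds), with dashed lines at 2-fold. Members scatter about 0 below a signal of 1000 and turn upward above it together with the grey points and the bright control probes.

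Most members shared their seed with no other member. The 142 sequences hold 132 different seeds, and 19 members share 9 of these with another member. The seed UGGGGUG occurs in 3, whose signals lie close together: miR-6737-5p read 352 and 363, miR-6819-5p 285 and 270, and miR-6812-5p 278 and 267. They are shown with seeds in capitals.
miR-6737-5p: uUGGGGUGgucggcccuggag
miR-6819-5p: uUGGGGUGgagggccaaggagc
miR-6812-5p: aUGGGGUGagauggggaggagcagc
Other members with a common seed ranged from close to far apart. miR-6803-5p read 1017 and 1257 and miR-6751-5p, with the same seed, 55.5 and 50.2.
miR-6803-5p: cUGGGGGUggggggcugggcgu
miR-6751-5p: uUGGGGGUgagguuggugucugg
With the seed CGGGGAG, miR-6777-5p, within the lipid regulator gene SREBF1, read 878 and 768 and miR-6889-5p 190 and 231. With GGGGGGA, miR-6887-5p read 765 and 649 and miR-6795-5p, within NOTCH3, 350 and 321. With AGGGAAC, miR-6822-5p read 591 and 452 and miR-6750-5p 100.7 and 84.5. With UGGGAGG, miR-6779-5p read 242 and 237 and miR-6780a-5p 63.7 and 66.5. With AGGUGGC, miR-6865-5p read 114 and 152 and miR-6815-5p 49.96 and 61.5. With AGAGAGG, miR-6856-5p read 92.8 and 83.7 and miR-6758-5p 76.2 and 102. The pair with GGGAAAG, miR-6733-5p and miR-6739-5p, was above background on neither array. Of the miRNAs with a letter, miR-6780a-5p was dimmer than miR-6780b-5p, and they do not share a seed. miR-6769a-5p read 396 and 311 and miR-6769b-5p 238 and 256.

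Seeds were also shared with miRNAs outside the block by 44 members. How often other miRNAs share a seed was not computed, so no count of shared seeds can be read as a trait of the members. The examples were chosen after their values were seen. miR-6787-5p shares GGCGGGG with miR-663a, which read 1159 and 2727, and with miR-1908-5p, at 5011 and 8178. All are bright, and miR-6787-5p was the one dimmer on HuH-7-M. miR-6780b-5p shares GGGGAAG with miR-4725-3p (1150 and 2614) and miR-4271 (172 and 148). miR-6838-5p, at 44.0 and 38.9, carries AGCAGCA, the seed of the widely expressed miR-15 and miR-16 family that targets cell cycle messenger RNAs. miR-16-5p itself read 9.35 and 3.03, miR-15b-5p 6.71 and 4.19, and miR-15a-5p, miR-195-5p, miR-497-5p and miR-424-5p were not above background on both arrays. Their sequences outside the seed differ, as the lines below show, with the shared seeds in capitals.
miR-6787-5p: uGGCGGGGguagagcuggcugc
miR-663a: aGGCGGGGcgccgcgggaccgc
miR-1908-5p: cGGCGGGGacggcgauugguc
miR-6838-5p: aAGCAGCAguggcaagacuccu
miR-16-5p: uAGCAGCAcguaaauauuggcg
miR-6838-5p holds 27.3% guanine, the same share as miR-16-5p.

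Other mirtron-rich groups were bright as well. All 9 of the 5p arms of miR-7106 to miR-7114 exceeded the No Probe limit on each array, with median signals of 357.5 and 397.8 and a median guanine content of 54.5% over the 8 with a sequence. Of the 12 arms of miR-877 and miR-1224 to miR-1228, the first mirtrons described in mammals, 10 were above it, and miR-1228-5p was the brightest at 2354 and 2938. These 12 hold 5p and 3p arms, with median signals of 98.25 and 114.6, below the members' 157.6 and 166. Their median guanine content was 40.6%. Of 5 miRNAs typical of hepatocytes, all were above the BLANK limit and 2, miR-122-5p (39.98 and 67.7) and miR-885-5p (29.8 and 36.9), also above the No Probe limit. Of 4 miRNAs typical of blood cells, all were likewise above the BLANK limit and none exceeded the No Probe limit on each array. miR-486-5p, the brightest of these 4 (30.6 and 28.5), exceeded it on HuH-7-P only. On HuH-7-P the blood list ranged from 6.56 to 30.6 and the hepatocyte list from 7.23 to 39.98. With HuH-7-M the ranges were 4.05 to 28.5 and 9.27 to 67.7. The part of either cell type in the members' signals was not tested.

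The scanner output and the authors' deposited table name the members' values differently. All 167 identifiers are in that table. Of the 160 members above background on at least 1 array, 159 could be matched to a row by value (relative tolerance 1e-06), none of them at its own identifier and 159 at the identifier 2 rows earlier. The value rebuilt from the miR-6780b-5p spot, 1885 and 4221 in the authors' deposited table, stands there under miR-6835-5p, and the value at the identifier of miR-6780b-5p is 10.7 and 19.0. Likewise the value of miR-6727-5p, 2034 and 3707 in the authors' deposited table, stands under miR-6726-5p. Assigned by value, the deposited values correlated with guanine content at 0.701 (Spearman, 137 members), and under the table's own identifiers at 0.0495 (134 members). The value of 0.701 repeats the correlation of the scanner signals, because matching by value returns rescaled signals of the same spots. It is not separate evidence on the names. The files do not say which names are right. The scanner names are used throughout, and every named value here depends on that choice.

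**Figure D5:**
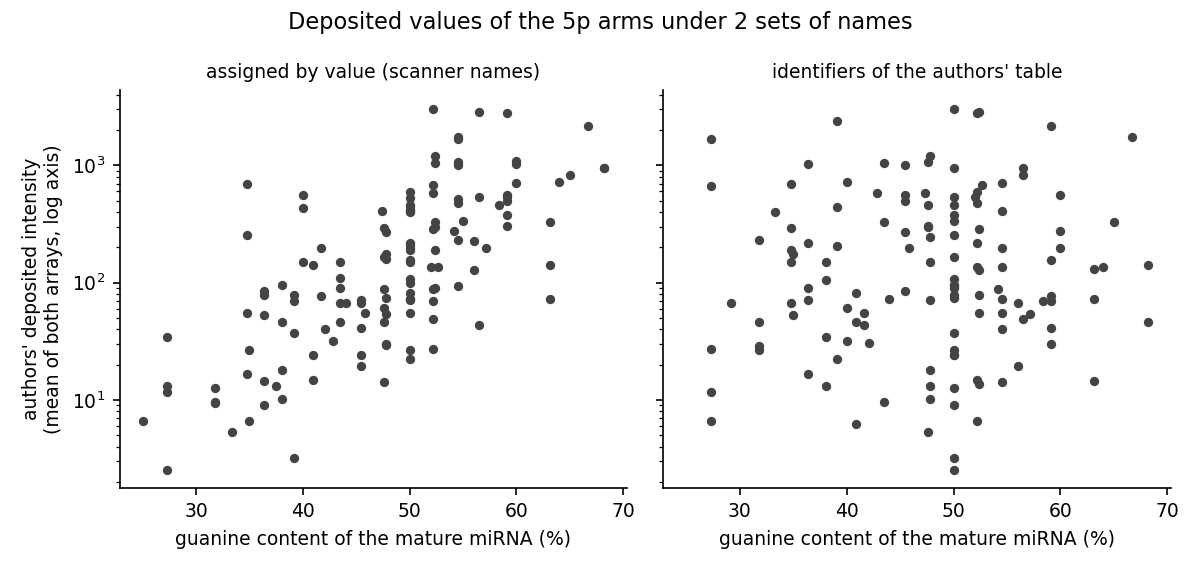
Deposited intensity of the members (mean of both arrays, log axis) against guanine content in percent, with each value assigned to the spot it was rebuilt from on the left and under the identifiers of the authors' table on the right. The points rise with guanine on the left (Spearman correlation 0.701), where they are rescaled scanner signals of the same spots, and show no slope on the right (0.0495).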

How the data were processed

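Cy5-labelled RNA from the exosomes of each culture was hybridised to 1 array of the 3D-Gene miRNA platform, per the labels' protocols, giving n = 1 in each of 2 groups. Per the file headers, the deposited scanner files give the median intensity of each spot on a linear scale, with no background subtracted; the authors' deposited table holds intensity values that could be rebuilt from them by subtracting the BLANK mean and scaling each array to a median near 25. For the scanner software, the name is not stated in the sources used.

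Each limit was a mean plus 2 SD, taken over BLANK or over No Probe spots after trimming 5% at either end. For differences, all miRNA probes were corrected by normexp on the BLANK spots with an offset of 50 (nec), quantile normalized and put on the log2 scale (limma 3.58.1, R 4.3.3); on simulated data large changes of bright probes were recovered, and some unchanged probes also passed 2-fold. Shares, ranks and correlations used python 3.11.15, pandas 2.3.3 and scipy 1.17.1. With 1 array in each group there is no p-value, and size was judged at 2-fold (a log2 difference of 1). A member with a bad-spot entry was kept.

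Named members were the 15 brightest, those past 2-fold, the 8 highest and 8 lowest differences, those above background on 1 array, those with a letter or a shared seed, the 4 hairpins furthest apart each way among those with an arm above the No Probe limit on each array, and the 3 members on each side of the No Probe limit. Members and lists were chosen with earlier results of these data known. Sequences are RefSeq's (GRCh38.p14); RefSeq's gene table gave host gene names only. Other background corrections, scalings and limits were tried.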

Additional observations from a re-analysis of the deposited data

How the results depend on the processing

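On the main scale 0 members were 2-fold higher in HuH-7-M and 1 lower. With the BLANK mean subtracted and quantile scaling, 1 was higher (miR-6770-5p) and 2 lower (miR-6890-5p and miR-6881-5p). With the offset of 50 and no scaling, scaling to a common median, or scaling to the 75th percentile, 2 were higher each time (miR-6780b-5p and miR-6729-5p). With the BLANK mean subtracted and no scaling, 4 were higher and 2 lower. In the authors' deposited table, assigned by value, 5 were higher and 2 lower. Scaling to the spiked-in controls shifted the median of the members to -0.57 and that of all miRNAs to -0.58, and 5 members were then lower. miR-6890-5p was lower by more than 2-fold under each of these settings, between -1.65 and -1.03. Of 28 members named for brightness or difference, the sign changed for 6 on the scale of the spiked-in controls, for 1 at the 75th percentile and for 1 of 27 in the authors' values; the value moved by more than 0.171 for 20, 15 and 21 of them, and for 17 with the BLANK mean subtracted and no scaling. The share of hairpins with a brighter 5p arm was 91.5% and 90.8% (HuH-7-P, then HuH-7-M) where 1 or 2 arms exceeded the No Probe limit, against 63.3% on each array outside the block. The correlation with guanine content was 0.0495 under the names of the authors' table, which was tried only after seeing the data. The cause of these changes was not tested beyond the settings themselves. No paired analysis was possible because there is 1 array per group. With 1 spot per miRNA, signals near the BLANK limit carry no usable difference.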

Other observations

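Of 134 members whose hairpin sequence is listed, 21 lay on chromosome 19, with median signals of 350.3 and 320.9 (HuH-7-P, then HuH-7-M), 17 on chromosome 1 (111.4 and 102.5) and 15 on chromosome 17 (242.1 and 236.9). Members starting with G were brighter (median 449.4 and 434.3 over 17, at a median of 58.3% guanine) than those starting with C (242.1 and 236.1), U (98.1 and 91.8 over 62, at 48.9%) or A (75.8 and 78.2). By length the medians were 356.1 and 392.9 at 20 bases or under, 116.7 and 130.7 at 21, 170.4 and 138.9 at 22, 92.5 and 98.5 at 23, and 124.3 and 143.1 at 24 or over. These are descriptions without a test.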
